A study of Mus musculus with 6 samples.

Results

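The 10 genes described here belong to the Notch pathway, the cell-contact signalling system that in the fetal testis is known for holding back Leydig cell progenitors. They were taken by name from the 42747 genes of the table: the receptors Notch1, Notch2, Notch3 and Notch4, the ligands Jag1, Jag2 and Dll4, and the response genes Hes1, Hey1 and Heyl. All 10 were found once, and all 10 passed the filter on low counts, which left 18383 genes. RNA came from testes of mouse embryos at E16.5, 3 libraries carrying the label cKO and 3 the label WT. Each library is numbered as a replicate and was taken as its own mouse. The series title places the kinase CK1α, encoded by Csnk1a1, in Sertoli cells, so cKO was read as a conditional knockout of that gene in these supporting cells. The sources used here do not give the Cre driver, the alleles, the strain or whether WT animals carried a Cre or floxed allele.

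Notch receptors sit in the membrane of the receiving cell and are bound by Jagged and Delta-like ligands on a neighbouring cell. Binding leads to cleavage by ADAM proteases and γ-secretase, and the released intracellular part joins the DNA-binding protein RBPJ to switch on Hes and Hey genes, which encode basic helix-loop-helix repressors. In developing vessels, Dll4, Notch1 and Notch4 are known from endothelial cells and Notch3 with Heyl from the mural cells around them, while Notch2 and Hes1 are expressed more widely. Whole-organ RNA mixes these sources, so fewer cells of a type and less RNA per cell cannot be told apart.

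Libraries held 15092619 to 17431546 counts, and single members 187 to 6307 counts per library. Levels are given as CPM, the count scaled to a TMM-adjusted library total, and as FPKM, which is also scaled by gene length, where one gene is set against another. Csnk1a1 stood at 393 ± 14.1 CPM in cKO and 372 ± 24.0 in WT (SD, n = 3; log2 fold change 0.08; edgeR adjusted p = 0.798). Which exons were removed is unknown here and the organ holds other cells, so this level does not check the labels.

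Of the 10 genes, 1 differed between the groups by edgeR's quasi-likelihood test at a Benjamini-Hochberg adjusted p under 0.05: Heyl was lower in cKO testes. Across all 18383 genes tested, 3.35% were called at that threshold, 1.84% as lower and 1.5% as higher in cKO. None of the 10 was called higher by edgeR or limma-voom, and DESeq2 called 1, Notch3. With no adjustment for multiple tests, 5 members were higher and 1 was lower at p under 0.05, against 15.8% of all tested genes in either direction. The median log2 fold change of the 10 was 0.27, beside 0.00 for all tested genes. In 3 of the 10 genes the cKO and WT libraries did not overlap (Notch3 and Hey1 above WT, Heyl below it), where 21.6% of all tested genes showed such a gap.

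**Figure D1:**
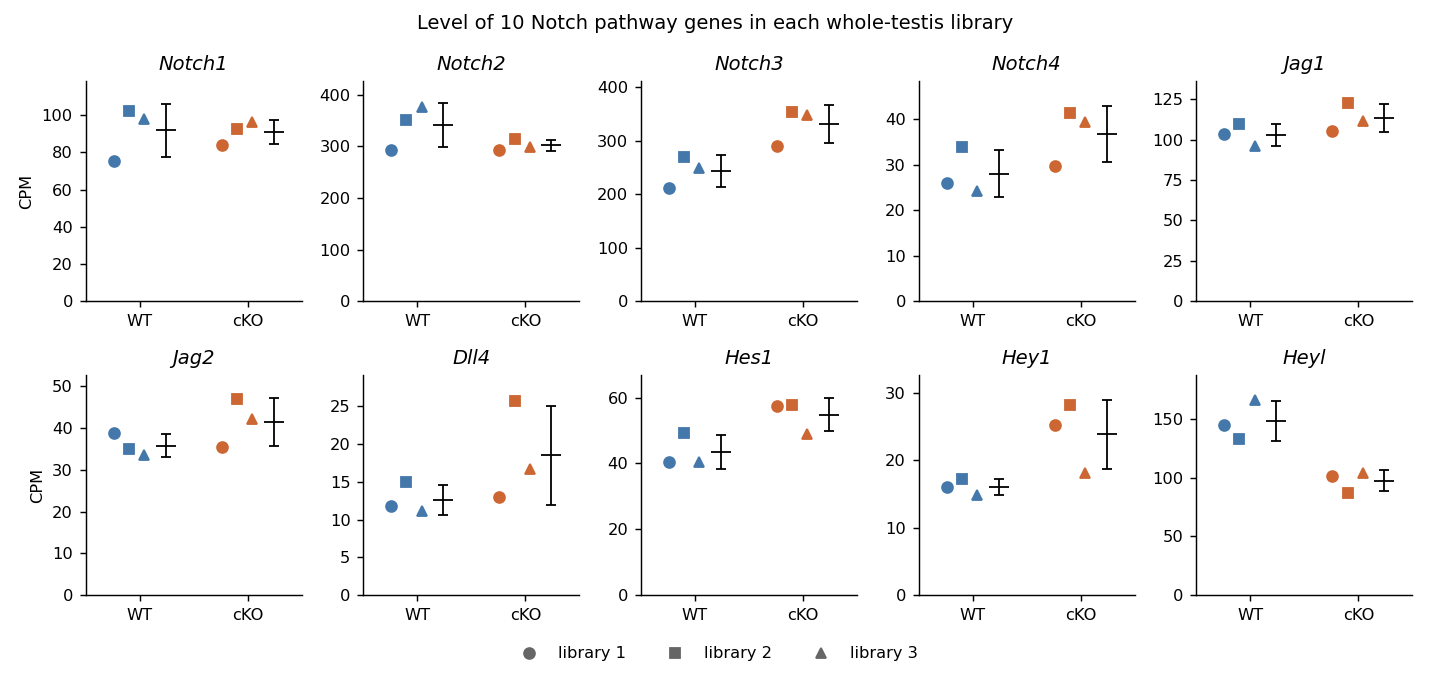
Level of each of the 10 genes (y axis, CPM from 0) in the 3 WT and 3 cKO libraries; the bar beside the points is the mean ± SD (n = 3). Heyl lies lower in all cKO libraries, Notch3 and Hey1 lie higher in all of them, and the remaining genes overlap between groups.

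Notch2 and Notch3 made up most of the receptor RNA. In WT testes Notch2 stood at 31.3 ± 4.02 FPKM (SD, n = 3), Notch3 at 29.9 ± 3.82, Notch1 at 6.38 ± 1.02 and Notch4 at 3.43 ± 0.646. Notch2 and Notch3 overlapped in level there, and both lay far above Notch1 and Notch4. In cKO testes Notch3 ranked first at 40.8 ± 4.42 FPKM, with every cKO library above its Notch2 range, and Notch2 followed at 27.8 ± 1.01.

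Notch3, a receptor known from mural cells and from the interstitium, lies on chromosome 17 (positions 33036321 to 33085257, minus strand; these and all gene positions are those of the deposited table, in C57BL/6NJ coordinates). Its level was 290, 354 and 349 CPM in cKO libraries 1, 2 and 3 and 211, 270 and 248 CPM in WT libraries 1, 2 and 3. The lowest cKO library therefore exceeded the highest WT library. In edgeR its log2 fold change of 0.44 (SE 0.137, 95% confidence interval 0.14 to 0.74) missed the threshold (adjusted p = 0.121), while DESeq2 called it higher (0.45, adjusted p = 0.0432). The gene Gm17276 overlaps Notch3 on the other strand and took 64 reads in all 6 libraries.

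Notch2, the receptor of widest expression, lies on chromosome 3 (102666486 to 102809405, plus strand). It was measured at 294, 314 and 299 CPM in the cKO libraries and 294, 351 and 377 CPM in WT, so the groups overlapped at their lower end. Its log2 fold change was -0.17 (95% confidence interval -0.45 to 0.11; edgeR adjusted p = 0.562). Notch3 thus had a positive and Notch2 a negative fold change, and edgeR called neither. As a share of the summed FPKM of the 4 receptors, Notch3 made up 49.5%, 51.9% and 52.4% in cKO libraries and 42.3%, 43.3% and 40.8% in WT. Notch2 made up 35.1% ± 2.05 in cKO and 44.1% ± 2.10 in WT, and Notch1 7.98% ± 0.265 and 8.96% ± 0.359. None of these 3 shares overlapped between the groups (exact two-sided permutation p = 0.1 for each, the smallest that 3 against 3 samples can give). The shares add up to a fixed whole, so a higher share of one receptor lowers the others, and the summed receptor level itself did overlap, at 79.5 ± 6.38 FPKM in cKO and 71.0 ± 8.71 in WT.

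Notch1, the receptor on chromosome 2 (25195421 to 25267769, minus strand) that endothelial and many other progenitor cells carry, was the member nearest to no difference. It held 83.8, 92.7 and 96.2 CPM in cKO and 75.5, 102 and 97.8 CPM in WT, and all cKO values lay inside the WT range. Its log2 fold change was -0.01 with a 95% confidence interval of -0.31 to 0.29, and the sign turned without cKO library 1 (0.04), WT library 2 (0.08) or WT library 3 (0.03). Notch4, an endothelial receptor on chromosome 17 (35933788 to 35982801, plus strand), held 29.7, 41.4 and 39.3 CPM in cKO against 26.0, 33.9 and 24.2 CPM in WT. Only cKO library 1 reached into the WT range (log2 fold change 0.39, SE 0.177; edgeR adjusted p = 0.312).

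Among the 3 member ligands, Jag1 was the most abundant, at 17.5 ± 1.19 FPKM in WT and 19.2 ± 1.49 in cKO. Jag2 followed at 8.74 ± 0.639 and 10.2 ± 1.41 FPKM and Dll4 at 3.24 ± 0.524 and 4.76 ± 1.69 FPKM, and in neither group did neighbours in this order overlap. Jag1, the Jagged ligand whose gene lies on chromosome 2 (145099632 to 145140130, minus strand), held 105, 122 and 111 CPM in cKO and 103, 110 and 95.8 CPM in WT. The groups overlapped (log2 fold change 0.14, 95% confidence interval -0.12 to 0.39; edgeR adjusted p = 0.624). Jag2, its relative on chromosome 12 (118944031 to 118964936, minus strand), held 35.5, 46.9 and 42.3 CPM in cKO and 39.0, 34.9 and 33.6 CPM in WT. Here cKO library 1 lay below WT library 1 and the other cKO libraries lay above all WT libraries (log2 fold change 0.21, SE 0.144; edgeR adjusted p = 0.524).

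Dll4, the Delta-like ligand of endothelial tip and arterial cells, lies on chromosome 2 (126095206 to 126106415, plus strand). It held 13.0, 25.7 and 16.7 CPM in cKO and 11.8, 14.9 and 11.2 CPM in WT. Library 2 of the cKO group stood far above the others and cKO library 1 inside the WT range, and the log2 fold change of 0.55 (SE 0.249; edgeR adjusted p = 0.313) was 0.24 without cKO library 2. The antisense gene Gm14207 overlaps Dll4 and took 55 reads in all 6 libraries. Because no source states whether counting used strand, reads of such antisense partners may be shared.

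**Figure D2:**
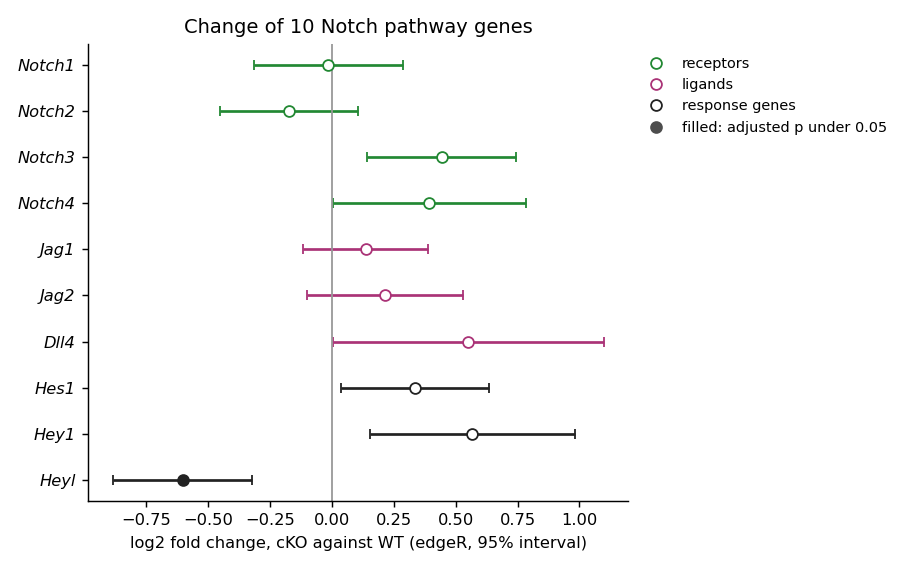
Log2 fold change of each gene in cKO against WT (x axis; points are edgeR estimates and bars 95% confidence intervals, filled where the adjusted p was under 0.05). Heyl alone is filled, at -0.60; Notch3, Hey1, Hes1, Notch4 and Dll4 lie to the right of 0 with adjusted p from 0.121 to 0.313.

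The 3 response genes had fold changes in both directions. Heyl, which encodes a Hey-family repressor known from smooth muscle and other mural cells, lies on chromosome 4 (129476988 to 129493288, plus strand). Its level was 102, 86.9 and 104 CPM in cKO libraries 1, 2 and 3, and 145, 133 and 166 CPM in WT libraries 1, 2 and 3. Every cKO library lay below every WT library. Heyl fell by 0.60 on the log2 scale (1.52-fold lower, SE 0.128, 95% confidence interval -0.89 to -0.32; edgeR adjusted p = 0.0266), and DESeq2 and limma-voom also called it lower. The call was lost without cKO library 3 (adjusted p = 0.0914) and without WT library 1, 2 or 3 (adjusted p = 0.0966, 0.0531 and 0.161), while the fold change stayed between -0.67 and -0.51.

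Hey1, the gene of a related repressor known from arterial endothelium and mesenchyme, lies on chromosome 3 (6096585 to 6100482, minus strand). It held 25.2, 28.2 and 18.1 CPM in cKO and 16.1, 17.2 and 14.9 CPM in WT. All cKO libraries lay above all WT libraries, cKO library 3 only just. A log2 fold change of 0.57 (SE 0.188, 95% confidence interval 0.15 to 0.98) was not called (edgeR adjusted p = 0.156). Hes1, the classic Notch response gene that also answers to other signals, lies on chromosome 16 (28531575 to 28534987, plus strand). It held 57.4, 57.8 and 49.1 CPM in cKO and 40.3, 49.4 and 40.5 CPM in WT. Library 3 of cKO and library 2 of WT met at about the same level (log2 fold change 0.34, SE 0.136; edgeR adjusted p = 0.256).

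In WT testes the order of the response genes was Heyl (28.6 ± 3.28 FPKM), Hes1 (21.1 ± 2.58) and Hey1 (4.86 ± 0.362), with no overlap between neighbours. In cKO testes Hes1 stood first (26.7 ± 2.41), then Heyl (18.9 ± 1.78), then Hey1 (7.24 ± 1.57). Heyl was thus the more abundant of the leading pair in every WT library and the less abundant in every cKO library. The ratio of Heyl to Hes1 FPKM was 0.705, 0.599 and 0.845 in cKO libraries and 1.43, 1.07 and 1.63 in WT libraries.

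Set against the receptor Notch3 in the same library, Heyl was lower still. The ratio of Heyl to Notch3 FPKM was 0.551, 0.386 and 0.469 in cKO and 1.08, 0.773 and 1.05 in WT, a 2.07-fold lower mean. The ratio of Heyl to Hey1 was 2.74 ± 0.861 in cKO and 5.94 ± 1.11 in WT, and that of Notch2 to Notch3 was 0.686 ± 0.0622 and 1.05 ± 0.0824. For each of these 4 ratios the groups did not overlap and the exact permutation test gave p = 0.1, its smallest possible value. Ratios within the endothelial set did not part the groups: Notch4 over Dll4 was 0.992 ± 0.197 in cKO and 1.06 ± 0.0278 in WT (exact permutation p = 1). These ratios were chosen after the gene levels had been seen, so they restate the levels and add no independent support.

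**Figure D3:**
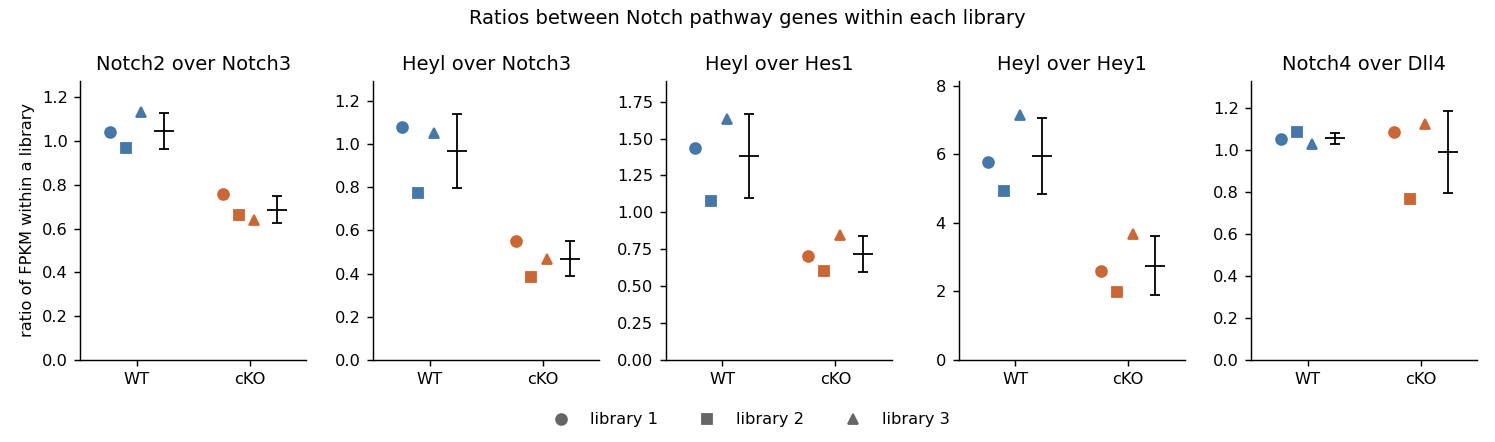
Ratio of FPKM of 2 genes within the same library (y axis from 0), for 3 WT and 3 cKO libraries, with mean ± SD (n = 3). The first 4 ratios are lower in every cKO library than in any WT library; Notch4 over Dll4 overlaps.

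The wider pathway was read from a list of 56 further genes, of which 54 were matched and 53 tested; the levels of Rbpj and Maml2 were not analysed here. Dtx1 was the 1 gene called by edgeR, as lower, and none was called higher (6 were higher and 7 lower at p under 0.05 with no adjustment; limma-voom 0 higher and 1 lower, DESeq2 2 higher and 3 lower). Across all 18383 tested genes, edgeR called 3.35%, and 15.8% had p under 0.05 with no adjustment. The median log2 fold change of the 53 was -0.08. Dtx1, the gene of Deltex, a cytoplasmic Notch regulator that Notch signalling is known to induce in lymphocytes, held 45.2, 47.2 and 38.0 CPM in cKO and 73.4, 92.3 and 88.2 CPM in WT. Every cKO library lay well below every WT library, a fall of 0.96 on the log2 scale (1.95-fold lower, SE 0.139; edgeR adjusted p = 0.00281). Dtx1 was called lower in all 16 alternative fits, with adjusted p up to 0.0267.

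Of the 5 other response genes tested, 2 had a positive fold change and none was called by edgeR or limma-voom, with 1 lower by DESeq2 (1 was higher and 1 lower at p under 0.05 with no adjustment). Hes5, known as a strict Notch response gene in neural progenitors, was rare but apart between the groups, at 0.922, 0.665 and 0.978 CPM in cKO and 2.49, 3.06 and 2.75 CPM in WT. Its log2 fold change of -1.68 (SE 0.408) lay at the threshold (edgeR adjusted p = 0.0502) and was called in 7 of 16 alternative fits. None of those 7 left out a library, and with 1 library left out the edgeR adjusted p was 0.0741 to 0.201. Hes6, which encodes a Hes-family protein known to counter Hes1, was the most abundant, at 15.1 ± 2.11 FPKM in cKO and 10.5 ± 1.47 in WT (log2 fold change 0.52; edgeR adjusted p = 0.15). Of all 8 response genes tested, Heyl, Hes5, Hey2 and Hes3 had negative and Hes1, Hey1, Hes6 and Hes7 positive fold changes, and edgeR called Heyl alone while DESeq2 called Heyl and Hes5.

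RBPJ is known to bind the letters GTGGGAA. These were searched on both strands in the 250 bases before the start of each gene in RefSeq (GRCm38.p6), and 5.42% of 32851 windows held at least 1 match. A window was at hand for 7 of the 10 members, the receptors and ligands, and 0 of these 7 windows held the motif. Hes1, Hey1 and Heyl had no window. Some genes have several starts: of 61 windows of 45 other pathway genes 6 held it, 1 each of Hes5, Hey2, Hes7, Lfng, Psen2 and Spen. Shown as examples are the windows of Hes5, with 2 matches, of the arterial response gene Hey2 and of Lfng. Lfng encodes a glycosyltransferase that tunes the choice of ligand. Hes5, the gene nearest to a call, carries a match on each strand. Capitals mark the matches, and each line reads 5′ to 3′ along the gene: Hes5 at chr4:154960673-154960922 (plus strand), Hey2 at chr10:30842784-30843033 (minus strand) and Lfng at chr5:140607091-140607340 (plus strand).
Hes5: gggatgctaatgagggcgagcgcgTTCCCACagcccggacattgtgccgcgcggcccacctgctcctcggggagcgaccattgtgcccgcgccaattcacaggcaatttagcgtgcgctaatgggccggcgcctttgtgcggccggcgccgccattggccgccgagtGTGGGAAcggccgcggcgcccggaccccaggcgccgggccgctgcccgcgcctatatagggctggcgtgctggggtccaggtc
Hey2: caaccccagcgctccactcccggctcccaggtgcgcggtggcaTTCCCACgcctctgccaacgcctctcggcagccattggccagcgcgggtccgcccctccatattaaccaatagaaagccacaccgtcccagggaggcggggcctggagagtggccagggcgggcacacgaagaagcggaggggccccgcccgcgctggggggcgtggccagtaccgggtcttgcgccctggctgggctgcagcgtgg
Lfng: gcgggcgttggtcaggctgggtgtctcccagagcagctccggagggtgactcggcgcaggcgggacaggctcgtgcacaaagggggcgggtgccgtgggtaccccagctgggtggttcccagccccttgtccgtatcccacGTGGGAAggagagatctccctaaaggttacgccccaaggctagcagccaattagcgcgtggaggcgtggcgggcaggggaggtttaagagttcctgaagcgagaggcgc
In Hes5 the matches begin 226 and 83 bases before the gene start, in Hey2 207 and in Lfng 109. Lfng held 24.3 ± 1.31 CPM in cKO and 31.5 ± 1.25 in WT with no overlap (log2 fold change -0.37; edgeR adjusted p = 0.199), and Hey2 held 4.74 ± 1.77 and 6.08 ± 1.25 CPM with overlap (-0.36; edgeR adjusted p = 0.641). Of the other genes with a match, Hes7 (log2 fold change 0.10) and Spen (-0.21) overlapped between groups. Psen2 (0.17) lay higher in every cKO library than in any WT library. None of them was called by edgeR (adjusted p = 0.946, 0.666 and 0.619 for Hes7, Spen and Psen2). Hey2 and Lfng are named for their windows, after their values were seen. A match of letters describes the window only.

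The machinery around the receptors held no call by edgeR. Among 9 genes of cleavage, 9 corepressors and 9 modifiers of ligands and receptors, limma-voom also called none, and DESeq2 called Tle3 higher and Neurl1a lower (at an unadjusted p under 0.05, 0, 1 and 3 genes of these lists). Ncstn, the γ-secretase subunit nicastrin and the most abundant cleavage gene, stood at 37.2 ± 4.97 FPKM in cKO and 35.9 ± 2.35 in WT (log2 fold change 0.05, 95% confidence interval -0.23 to 0.33). Tle3, a Groucho corepressor that Hes proteins recruit, held 148 ± 23.3 CPM in cKO and 104 ± 8.07 in WT (0.52; edgeR adjusted p = 0.0732). Neurl1a, a Neuralized ubiquitin ligase of Notch ligands, held 33.6 ± 7.04 and 50.3 ± 3.19 CPM (-0.58; edgeR adjusted p = 0.0818). The ligase gene Mib2, the most abundant modifier, overlapped between groups at 26.9 ± 5.02 FPKM in cKO and 22.0 ± 2.99 in WT.

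Among 7 tested genes of the nuclear complex edgeR, DESeq2 and limma-voom each called none (3 lower at an unadjusted p under 0.05), and Snw1, its most abundant member, stood at 41.7 ± 4.76 and 40.7 ± 1.19 FPKM. Of 10 inhibitors and turnover genes Dtx1 was the 1 called, and the most abundant, Dtx3, stood at 75.1 ± 12.7 FPKM in cKO and 62.6 ± 4.86 in WT (edgeR adjusted p = 0.421). Of 4 further ligand genes none was called by edgeR or limma-voom and 1 by DESeq2 (1 higher at an unadjusted p under 0.05). That 1 was Dlk1, a non-canonical ligand made by interstitial progenitors, which held 1179, 1549 and 1614 CPM in cKO and 698, 1160 and 875 CPM in WT. All cKO libraries lay above all WT libraries, though cKO library 1 and WT library 2 nearly met (log2 fold change 0.67, SE 0.196; edgeR adjusted p = 0.106).

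**Figure D4:**
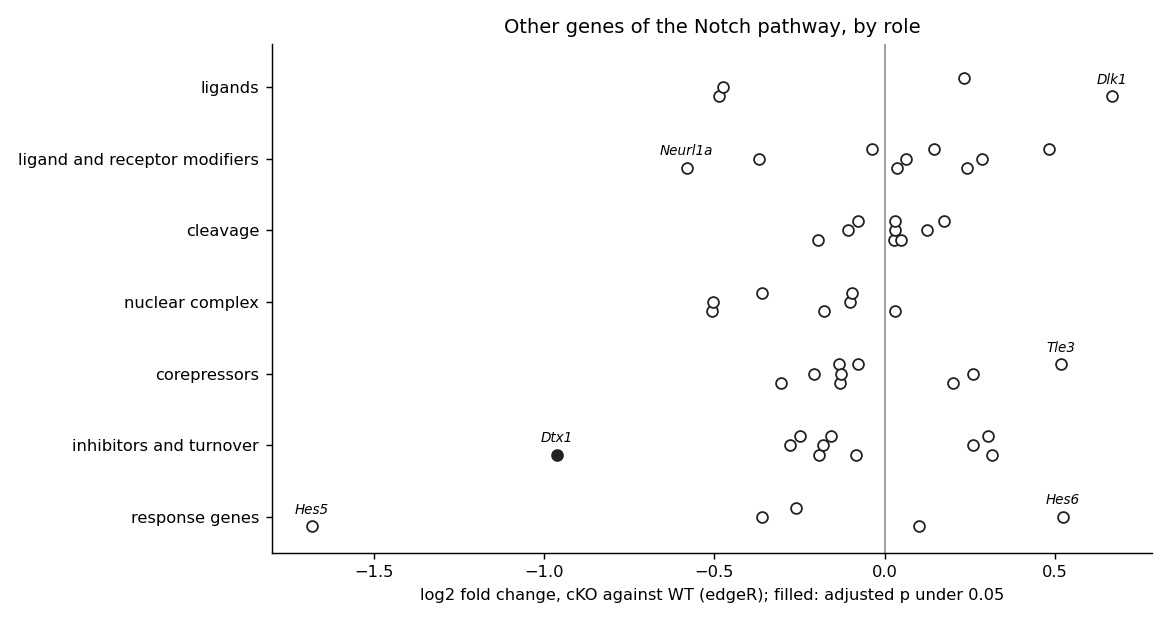
Log2 fold change (x axis, cKO against WT, edgeR) of 53 other pathway genes, 1 point a gene, by role; filled points have an adjusted p under 0.05. Dtx1 at -0.96 is the only filled point, and Hes5 at -1.68 is the farthest from 0.

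Cell type markers were read beside these values. The labels name testis, and markers of Sertoli, Leydig, germ and endothelial cells were all detected. The summed level of 16 endothelial markers was 869 to 1040 CPM in cKO and 859 to 955 CPM in WT, which overlapped (exact permutation p = 0.3). Of these markers edgeR and limma-voom called 1 and DESeq2 2 as higher. Of the 16, 9 had a positive fold change, and 3 were higher and 0 lower at p under 0.05 with no adjustment. The 1 called by edgeR was Kdr, a VEGF receptor gene (log2 fold change 0.66; adjusted p = 0.0157; not called without cKO library 3, WT library 1 or WT library 3, with adjusted p up to 0.104), and Cdh5 and Eng, the most abundant, were not called (-0.12 and -0.15). The 6 arterial markers summed to 182, 211 and 209 CPM in cKO and 157, 171 and 160 CPM in WT, without overlap (exact permutation p = 0.1, the smallest possible). Of these Efnb2, the arterial ephrin gene, was called higher (log2 fold change 0.67, edgeR adjusted p = 0.0111). Its call was lost without WT library 2 or 3 (adjusted p up to 0.0802), and Unc5b was not called (0.03). Efnb2 held 82.4 ± 6.83 CPM in cKO and 51.7 ± 3.47 in WT, beside mean arterial sums of 201 and 162 CPM. It was the 1 gene of the 6 with every cKO library above WT. In 1 other every cKO library lay below WT, and the rest overlapped. Per 1000 CPM of summed endothelial markers, Dll4 stood at 12.5, 29.6 and 16.2 in cKO and 13.7, 16.2 and 11.7 in WT, and Hey1 at 24.2, 32.4 and 17.6 against 18.7, 18.7 and 15.6. Both overlapped on this scale, and so did Notch4 and Notch3. Dll4 and Notch4 had overlapped on the CPM scale too, whereas Hey1 and Notch3 had not. Of the 10 members Heyl alone kept its groups apart on this scale, at 99.5 ± 1.65 in cKO and 162 ± 16.1 in WT. With the median of the markers in place of their sum 2 did, Notch3 and Heyl. With 1 library left out 1 to 4 did, Heyl each time: 4 without cKO library 1, 3 without cKO library 3 or WT library 2, and 2 without cKO library 2 or WT library 1.

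The 10 mural markers summed to 1037 to 1195 CPM in cKO and 1119 to 1234 CPM in WT, with overlap (exact permutation p = 0.4). Des, an intermediate filament gene of muscle and mural cells, was the 1 called (higher, 0.72; edgeR adjusted p = 0.0276; not called without cKO library 1 or any 1 WT library, up to 0.152), while the abundant Acta2 (-0.19) and Pdgfrb (-0.09) were not. Per 1000 CPM of mural markers, Heyl was 92.7, 83.8 and 87.1 in cKO and 127, 119 and 135 in WT, and Notch3 was 265, 342 and 292 against 185, 242 and 201. On that scale Heyl was lower and Notch3 higher in every cKO library than in any WT library, as on the CPM scale.

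All 12 Sertoli markers were called lower (10 of them without cKO library 3 or any 1 WT library), and their summed level was 795 to 1271 CPM in cKO and 2587 to 3539 CPM in WT. Their part in the fall of Heyl and Dtx1 was not tested. Of 12 markers of interstitial progenitors, the cells that Notch is known to restrain, 11 had a positive fold change. Of the 12, edgeR and limma-voom called 1 as higher and 1 as lower, and DESeq2 4 and 1. Ptch1, a Hedgehog receptor and target gene, was the 1 lower (-0.87; edgeR adjusted p = 0.00947; not called without cKO library 3, WT library 2 or WT library 3, up to 0.0701). Their sum was 3249 to 3850 CPM in cKO and 2655 to 3254 in WT, with an overlap (exact permutation p = 0.2). Fetal Leydig markers summed to 6092 to 8236 CPM in cKO and 4673 to 5545 CPM in WT without overlap, and 9 of 10 had a positive fold change. Of these, edgeR called 1, limma-voom 2 and DESeq2 4 as higher, and 5 were higher at p under 0.05 with no adjustment. The 1 called by edgeR was Fdx1, which encodes an electron carrier of steroid synthesis (higher, 0.85; edgeR adjusted p = 0.00732; not called without WT library 1 or 3, up to 0.0576). The mean levels of Notch3, Hey1 and Dlk1 were also higher in cKO, and the part of these cells in them was not tested. Germ cell markers (0 of 8 tested called) and macrophage markers (0 of 10) had overlapping sums, with 1 germ cell gene lower and 1 macrophage gene higher before adjustment and no call by DESeq2 or limma-voom.

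**Figure D5:**
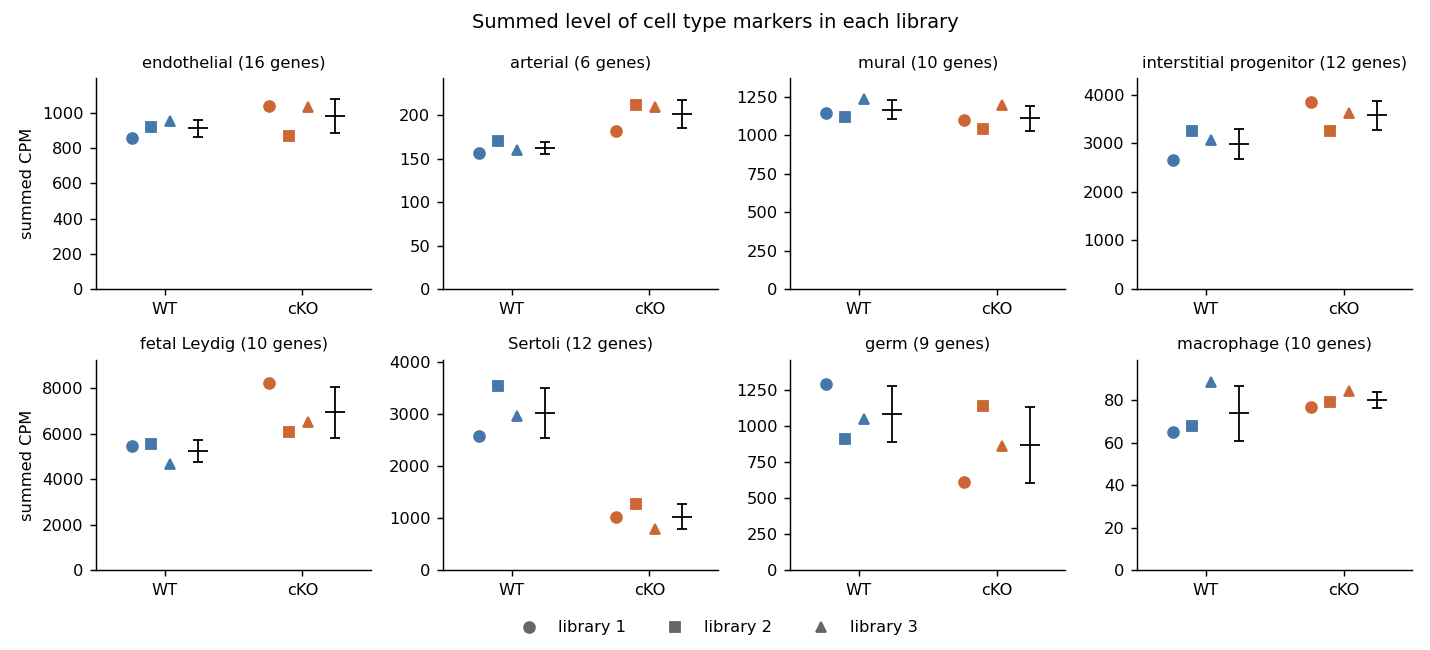
Summed CPM (y axis from 0) of each cell type marker list in the 3 WT and 3 cKO libraries, with mean ± SD (n = 3). The Sertoli sum is lower, and the arterial and Leydig sums higher, in every cKO library than in any WT library, while endothelial and mural sums overlap. Of the 6 arterial markers Efnb2 alone lies above WT in every cKO library.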

How the data were processed

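Per the labels' protocols, testis RNA was treated with DNase, poly(A) RNA was captured on poly-T beads, and reads came from an Illumina NovaSeq. The submitters' processing notes name HISAT2 2.0.5 and GRCm38. No source used here gives the counting tool, the strand setting or the annotation release. The deposited counts are whole numbers per gene, and a second set of columns is FPKM, per the file headers. Gene identifiers are of the C57BL/6NJ annotation in 41096 of 42747 rows, and 0 of 10 members start where GRCm38.p6 places them, so table positions were kept apart from GRCm38.

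In R 4.3.3, edgeR 4.0.16 fitted all 6 libraries (filterByExpr, TMM factors of 0.963 to 1.04, glmQLFit, glmQLFTest) with group as the only term; p-values were adjusted by Benjamini-Hochberg over 18383 genes with a threshold of 0.05. CPM used the TMM-scaled totals, and SE is the absolute log2 fold change divided by the square root of F. DESeq2 1.42.0, limma 3.58.1 (voom, and limma-trend on log2 FPKM with a pseudocount of 0.1 or 1), other scalings, other filters, a replicate block and leaving out each library were alternatives. Libraries of a group differed by a chi-square of 13.5 to 40.5 per degree of freedom, so none was another library sequenced again. This value cannot tell separate mice from separate preparations of 1 mouse. The p-values measure the spread between these libraries, which were taken as separate mice. On simulated data of the cKO against WT comparison (18383 genes), the fit recovered 8.16% of genes changed by 0.5, 59.2% of those changed by 1 and 90% of those changed by 2 on the log2 scale, with 8 unchanged genes among 115 calls. The simulation changed 200 genes, whereas edgeR called 615 in the real comparison. The adjustment for multiple tests depends on that number, so these shares do not give the recovery in the real data.

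The members and all gene lists were chosen with earlier results of these data known. Named besides the 10 members and Csnk1a1 are the other pathway genes called by edgeR, the 4 uncalled with the smallest p and the most abundant of each role, and from marker lists (endothelial, arterial, mural, interstitial progenitor, fetal Leydig, Sertoli, germ, macrophage) called or abundant genes; some of the genes this rule names are not reported here. A single value was tested by exact two-sided permutation over samples.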

Additional observations from a re-analysis of the deposited data

How the results depend on the processing

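Heyl kept its direction in all 16 alternative fits and its call in 10; besides the fits without single libraries, the call was lost on log2(FPKM + 0.1) and log2(FPKM + 1) (adjusted p = 0.061 and 0.0573). The cause was not tested. Members called lower numbered 0 in both FPKM fits and 0 to 1 with 1 library left out; members called higher numbered 1 with DESeq2 and 1 with no low-count filter, Notch3 in each, and 0 to 0 with 1 library left out. Other pathway genes called higher numbered 2 with DESeq2 and 2 with no filter (Dlk1 and Tle3), 1 with the replicate block and 0 to 1 with 1 library left out. Those called lower numbered 2 with upper-quartile factors, library totals, either FPKM fit, a mean of at least 1 CPM or the replicate block, 3 with DESeq2, 5 with no filter and 1 to 2 with 1 library left out. Endothelial markers called higher numbered 2 with DESeq2 and 2 with no filter, and 0 to 2 with 1 library left out; Kdr lost its call without cKO library 3, WT library 1 or WT library 3. Members apart between groups per endothelial marker level numbered 2 with the median of the markers in place of their sum, and 1 to 4 with 1 library left out, against 1. All genes called numbered 499 higher and 538 lower with DESeq2, 149 and 223 on log2(FPKM + 0.1), 156 higher on log2(FPKM + 1), 613 and 651 with no filter, and 105 to 342 higher and 167 to 399 lower with 1 library left out, against 276 and 339.

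Notch1 changed sign, near 0, on log2(FPKM + 0.1) (0.000625) and without cKO library 1, WT library 2 or WT library 3 (range with 1 library left out -0.135 to 0.076). Ncstn did so without cKO library 1 (range -0.0652 to 0.122), and Snw1 with library totals (-0.0011) and without cKO library 2 (range -0.0574 to 0.103).

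The replicate numbers share no stated litter or day. Deviations of same-numbered libraries correlated at 0.0172, 0.184 and 0.0325. With 3 libraries in each group, these values cannot show whether the numbers pair the samples. The replicate block called 1 other pathway gene higher (Dlk1) and 2 lower (Dtx1 and Neurl1a), and 1 member lower (Heyl). Not every library correlated best with its own number: cKO library 1 did so with WT library 3 (0.157). No scaling moved the median of all genes by over 0.1 on the log2 scale.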
